A study of Caenorhabditis elegans with 8 samples.

Results

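The insulin/IGF-1 signaling pathway of Caenorhabditis elegans was followed through its 10 core genes, daf-2, ist-1, age-1, aap-1, daf-18, pdk-1, akt-1, akt-2, sgk-1 and daf-16, taken by name from the WBcel235 annotation. All 10 were found among the 46904 genes in the files, and all 10 passed the filter on low counts that left 13722 genes for testing. RNA was measured from whole worms at day 1 of adulthood, raised at 20 °C. The groups were wild type (strain N2), daf-2(e1370) (strain CF1041), hel-1(gk148684) (strain IJ501) and the double mutant hel-1(gk148684); daf-2(e1370) (strain IJ1121), with 2 libraries of each described as independent biological repeats. The study asked how hel-1 mutation changes gene expression in wild-type worms and in daf-2 mutants. Each genotype is represented by 1 strain, and a mutant carries its alleles in all cells of the animal.

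In this pathway insulin-like peptides bind the receptor DAF-2, which signals to the PI3-kinase AGE-1 and its adaptor AAP-1. The lipid they make recruits PDK-1 and the kinases AKT-1 and AKT-2, which phosphorylate the FOXO transcription factor DAF-16 and hold it in the cytoplasm, and the phosphatase DAF-18 removes the lipid. Reduced receptor function, as in the daf-2(e1370) missense mutant, lets DAF-16 enter the nucleus and lengthens life, and HEL-1 is a DEAD-box RNA helicase.

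The libraries held between 31555368 and 37552513 counts. Levels are given as CPM, counts scaled to the size of the library with TMM factors, and fold changes are log2 values ± standard error from edgeR's quasi-likelihood test with Benjamini-Hochberg adjustment over all 13722 genes, at a threshold of 0.05. The transcript of hel-1 ranged from 468 to 618 CPM and passed in none of the comparisons, the smallest adjusted p being 0.0957 in daf-2 against wild type, so gene counts do not show the lesion. Libraries of the same genotype differed in the summed RNA of tissue markers. In daf-2 replicate 2 the summed level of 5 body wall muscle markers was 2.95 times that of replicate 1. It was 16.8 times for 5 pharynx markers, 1.41 times for 8 neuron markers and 0.783 times for 7 oocyte and germline markers. The summed level of 7 sperm markers was 36.6 and 9.19 CPM in wild type, 30.6 and 23.3 in hel-1, 13.1 and 34.9 in daf-2 and 10.1 and 9.85 in hel-1;daf-2, and in wild type replicate 2 the pharynx markers were 0.487 and the muscle markers 0.719 times those of replicate 1. In whole-worm RNA, fewer cells of a type and less RNA per cell cannot be told apart. No marker of these lists was at 0 in any library. The files of the 4 libraries with e1370 separate their columns by tabs and those of the other 4 by spaces, so any difference in how the 2 sets of files were made cannot be told apart from e1370 in daf-2 against wild type, in the double mutant against hel-1 and in their average.

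The 10 transcripts differed widely in level per length. Over the 8 libraries the mean was 166 CPM per kb of exon for daf-18, 90.2 for akt-1, 45.7 for aap-1, 42.5 for daf-16, 26.1 for age-1 and 15.2 for daf-2. The remaining 4 stood lower, sgk-1 at 10.4, pdk-1 at 5.07, akt-2 at 4.31 and ist-1 at 1.11 CPM per kb. daf-18 was above 95.4% of all tested genes on this scale and ist-1 above 26.1%. Library ranges of neighbours in this order overlapped for aap-1 (40.4 to 49.6) and daf-16 (39.3 to 45.7), for daf-2 (12.9 to 17.4) and sgk-1 (8.22 to 16.2), and for pdk-1 (3.67 to 6.88) and akt-2 (2.86 to 7.37). All other neighbours were separated in every library. The 4 lowest, sgk-1, pdk-1, akt-2 and ist-1, are the 4 members that lie on chromosome X. X genes were lower in general on this scale. The median was 3.31 CPM per kb for 1927 tested X genes and 8.75 for 11770 tested autosomal genes. Of the 4, only ist-1 was below that X median.

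**Figure D1:**
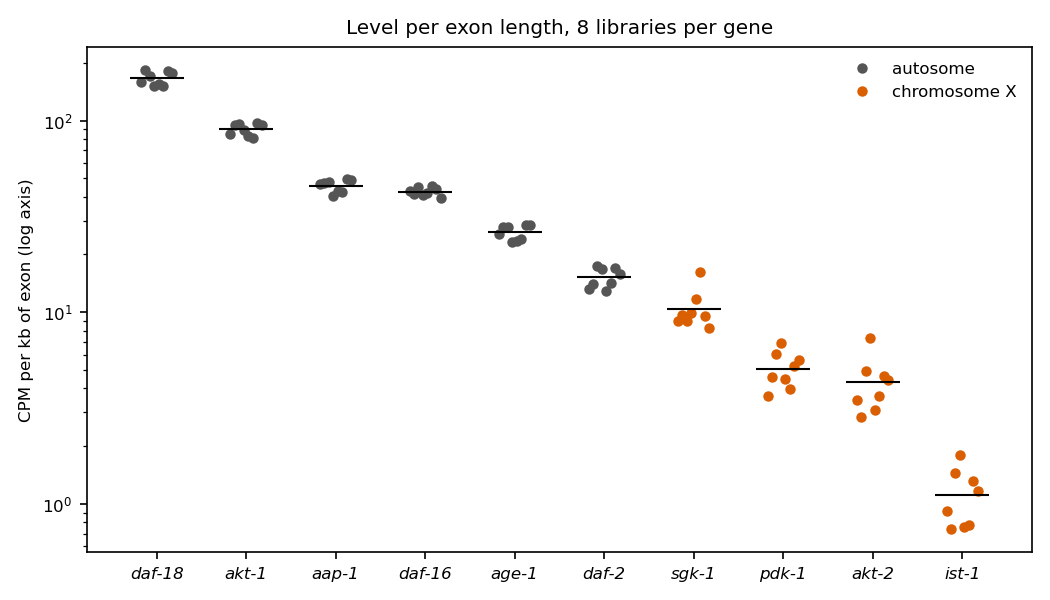
Level of each gene in CPM per kb of exon (log axis) in each of the 8 libraries (points), with the mean as a bar, ordered by mean and coloured by chromosome. The 6 autosomal members have means from 15.2 to 166 and the 4 X-linked members from 1.11 to 10.4 CPM per kb. The medians of all tested genes, not drawn, are 8.75 on autosomes and 3.31 on chromosome X.

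In daf-2 worms 4 of the 10 genes rose against wild type, 0 fell and 6 did not pass. Of all tested genes, 12.1% were called higher and 7.21% lower in this comparison, 19.3% in all. The 4 were the receptor gene daf-2 itself, ist-1, pdk-1 and akt-2, so that 2 act above the PI3-kinase and 2 below it. The median log2 change of the 10 was 0.03, and that of all tested genes 0.10. No member passed in hel-1 against wild type, where 0.415% of all genes were called, nor in the double mutant against daf-2, where 0.051% were called. None passed in the double mutant against hel-1 either, although 5.61% of all genes did there. These counts of 0 are from edgeR. In the same order 1, 0 and 7 members had an unadjusted p under 0.05. So had 1674, 2307 and 3147 of all 13722 tested genes. DESeq2 called 0, 0 and 1 members, beside 1.79, 1.87 and 6.07% of all genes. Leaving out either daf-2 library gave 5 members higher and 1 lower in the double mutant against hel-1, where 15.1% (without replicate 1) and 16.3% (without replicate 2) of all genes were then called. Without daf-2 replicate 1 the double mutant against daf-2 had 3 higher and 1 lower, when 39.9% of all genes were called, so 4 of 10 is near that background. With only the 4 libraries of the genotypes compared in the fit, all 4 calls in daf-2 against wild type ended (adjusted p from 0.0989 for ist-1 to 0.116 for daf-2, with 3.21% of all genes called), and in the double mutant against hel-1 daf-2, ist-1, age-1, aap-1, daf-18 and akt-1 were called higher and sgk-1 lower (adjusted p from 0.0131 for age-1 to 0.0444 for sgk-1, with 22.3% of all genes called).

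The receptor gene daf-2 (chromosome III, 2994514 to 3040846, minus strand, WBcel235) had 109 and 116 CPM in the wild-type libraries, 107 and 118 in hel-1, 145 and 139 in daf-2 and 141 and 132 in hel-1;daf-2. Every library that carries e1370 was thus above every library that does not. The rise was 1.26-fold in daf-2 against wild type (0.33 ± 0.08, adjusted p = 0.0308) and the value in the double mutant against hel-1 was 0.28 ± 0.08 (adjusted p = 0.092). Its change with hel-1 was 0.00 ± 0.08 in the wild-type background, with a 95% interval of -0.19 to 0.18, and -0.06 ± 0.08 in the daf-2 background. The call in daf-2 against wild type ended without wild type replicate 1 (0.27) or replicate 2 (0.37), and without any 1 library of hel-1 or hel-1;daf-2 (0.32 in each). It also ended with DESeq2 size factors (0.26, adjusted p = 0.0864).

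ist-1, which encodes an insulin receptor substrate homolog, was the least abundant member (chromosome X, 7126648 to 7139666, plus strand). Its counts were 125 and 94 in wild type, 114 and 99 in hel-1, 182 and 285 in daf-2 and 174 and 147 in hel-1;daf-2, in CPM 3.63 and 2.92, 3.02 and 3.09, 5.74 and 7.11, and 5.23 and 4.61. The 4 libraries with e1370 were all above the other 4. ist-1 rose 1.96-fold in daf-2 against wild type (0.97 ± 0.20, adjusted p = 0.0209) and stood at 0.69 ± 0.20 in the double mutant against hel-1 (adjusted p = 0.0986). The first call ended without wild type replicate 1 (1.12) or 2 (0.81) and without daf-2 replicate 2 (0.82, adjusted p = 0.0537).

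**Figure D2:**
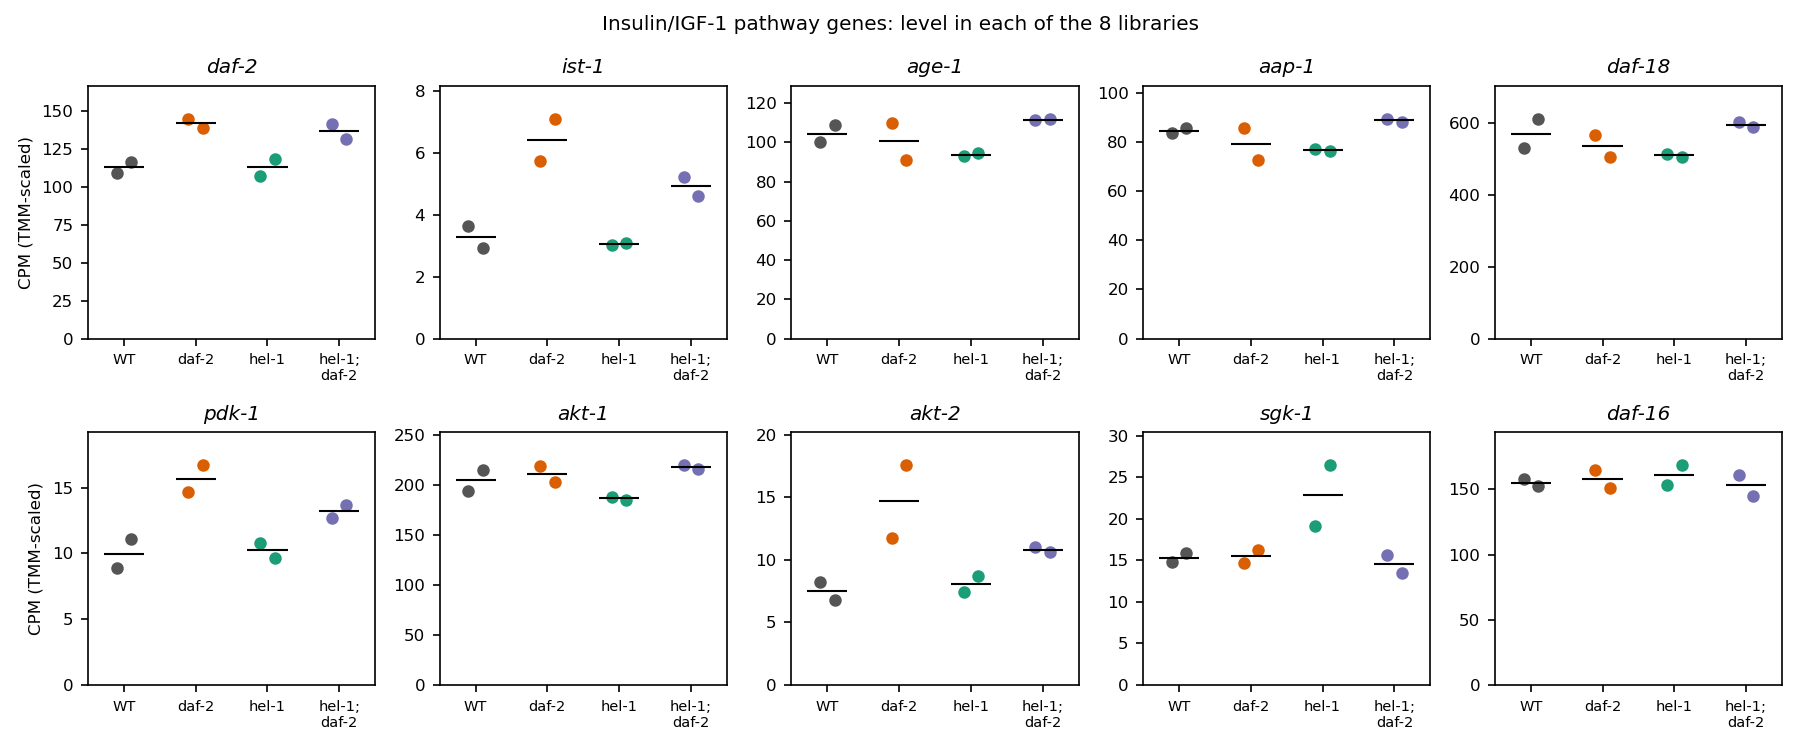
Level in CPM (vertical axis, from 0) of each gene in the 2 libraries of each genotype (points), with the mean as a bar. For daf-2, ist-1, pdk-1 and akt-2 the daf-2 and hel-1;daf-2 points lie above all wild-type and hel-1 points, sgk-1 is highest in the 2 hel-1 libraries, and daf-16 lies between 145 and 168 CPM throughout.

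The PI3-kinase genes and daf-18 passed in no comparison with all libraries fitted. age-1 (chromosome II, 11519328 to 11527054, minus strand), the catalytic subunit, had 100.3 and 109 CPM in wild type, 92.9 and 94.4 in hel-1, 110.0 and 91.3 in daf-2 and 111 and 112 in hel-1;daf-2. aap-1 (chromosome I, 5107843 to 5110183, plus strand), the adaptor, had 83.7 and 85.6, 77.2 and 76.5, 85.9 and 72.9, and 89.5 and 88.4 CPM in the same order. daf-18 (chromosome IV, 420011 to 425177, minus strand), which opposes them, had 530.0 and 612, 515 and 505, 568 and 504, and 603 and 589 CPM. In all 3 the hel-1 libraries were below the wild-type libraries and the hel-1;daf-2 libraries above the daf-2 libraries, with no overlap within either pair of genotypes. Of all tested genes, 29.2% were lower without overlap in hel-1 than in wild type, 24.8% were higher without overlap in the double mutant than in daf-2, and 14% showed both. In the double mutant against hel-1 the changes were 0.25 ± 0.09 (age-1, adjusted p = 0.164), 0.21 ± 0.08 (aap-1, adjusted p = 0.184) and 0.22 ± 0.10 (daf-18, adjusted p = 0.25). In daf-2 against wild type they were -0.06 ± 0.09, -0.09 ± 0.08 and -0.09 ± 0.10, with adjusted p from 0.419 to 0.685. Without daf-2 replicate 1 age-1 (-0.23, adjusted p = 0.025) and aap-1 (-0.25, adjusted p = 0.00816) were called lower in that comparison, as were 23.9% of all genes. Without daf-2 replicate 2 age-1 stood at 0.09 and aap-1 at 0.04 there, and neither was called.

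Ratios within a library do not depend on the scaling. The per-length ratio of daf-18 to age-1 was 6.43 ± 0.284 in wild type, 6.42 ± 0.156 in hel-1, 6.30 ± 0.302 in daf-2 and 6.29 ± 0.130 in hel-1;daf-2 (SD, n = 2 each). The ratio of age-1 to aap-1 was 0.567 ± 0.0234, 0.560 ± 0.00978, 0.582 ± 0.00906 and 0.577 ± 0.0075 in the same order. For both ratios the library ranges of the genotypes overlapped between wild type and daf-2. Over the 8 libraries log2 CPM of age-1 and aap-1 correlated at r = 0.965 and of age-1 and daf-18 at r = 0.941, a description in which library composition is shared by all genes.

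pdk-1 (chromosome X, 1321344 to 1327986, plus strand), the kinase that activates AKT and SGK kinases, had 8.90 and 11.1 CPM in wild type, 10.8 and 9.66 in hel-1, 14.7 and 16.7 in daf-2 and 12.7 and 13.7 in hel-1;daf-2. All libraries with e1370 were above all libraries without it. It rose 1.57-fold in daf-2 (0.65 ± 0.15, adjusted p = 0.0261) and stood at 0.36 ± 0.15 in the double mutant against hel-1 (adjusted p = 0.196). The call ended without wild type replicate 1 (0.49) or 2 (0.81), without daf-2 replicate 2 (0.57), and without either hel-1;daf-2 library (0.64 in both).

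Of the 2 AKT genes akt-2 was called and akt-1 was not; the difference between their changes was not tested. akt-1 (chromosome V, 10248905 to 10252845, plus strand) had 195 and 216 CPM in wild type, 189 and 186 in hel-1, 219 and 203 in daf-2 and 220.0 and 217 in hel-1;daf-2. Its change in daf-2 was 0.04 ± 0.08 (adjusted p = 0.732, 95% interval -0.15 to 0.23). akt-2 (chromosome X, 14147700 to 14152070, plus strand) had 8.26 and 6.80 CPM in wild type, 7.40 and 8.73 in hel-1, 11.8 and 17.6 in daf-2 and 11.03 and 10.6 in hel-1;daf-2. It rose 1.95-fold in daf-2 (0.96 ± 0.21, adjusted p = 0.023), again with every e1370 library above every other, and stood at 0.42 ± 0.21 in the double mutant against hel-1 (adjusted p = 0.27). The daf-2 replicates differed by 0.57 on the log2 scale, the widest gap of any member in that genotype. Its call was lost with daf-2 replicate 2 left out (0.66, adjusted p = 0.0548), without wild type replicate 1 (1.10) or 2 (0.82), and without either hel-1;daf-2 library (0.95 in both). The per-length ratio of akt-1 to akt-2 was 24.7 and 33.2 in the wild-type libraries, 26.6 and 22.2 in hel-1, 19.4 and 12.1 in daf-2 and 20.8 and 21.4 in hel-1;daf-2. It was lower in all 4 libraries with e1370 than in the other 4, though 21.4 in hel-1;daf-2 and 22.2 in hel-1 lay close. In every library akt-1 was the more abundant of the pair by 12.1 times or more.

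sgk-1 (chromosome X, 16254842 to 16262122, minus strand), the kinase related to serum- and glucocorticoid-inducible kinases, had its highest levels in hel-1. It had 14.8 and 15.8 CPM in wild type, 19.2 and 26.4 in hel-1, 14.7 and 16.3 in daf-2 and 15.6 and 13.5 in hel-1;daf-2. Both hel-1 libraries were above the other 6, and they differed from each other by 0.46 on the log2 scale. Of all tested genes, 30% were higher without overlap in hel-1 than in wild type. In the double mutant 34.5% were lower without overlap than in hel-1. The change in hel-1 against wild type was 0.58 ± 0.16 with an unadjusted p of 0.00798, and it did not pass over all genes (adjusted p = 0.238). In the double mutant against hel-1 it was -0.65 ± 0.16 (adjusted p = 0.0618). That difference passed with DESeq2 (adjusted p = 0.0259) and without the filter on low counts (adjusted p = 0.014). It also passed with only these 4 libraries fitted (adjusted p = 0.0444). It did not pass in edgeR with DESeq2 size factors (adjusted p = 0.057) or with the replicate number as a block. With 1 library left out its size ranged from -0.40, without hel-1 replicate 2, to -0.86, without hel-1 replicate 1. The interaction, which is the change with hel-1 among daf-2 strains less the change with hel-1 otherwise, was -0.67 ± 0.23 (adjusted p = 0.143).

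daf-16 (chromosome I, 10750498 to 10776703, plus strand), the transcription factor on which the pathway acts, was the steadiest of the 10. It had 158 and 152 CPM in wild type, 153 and 168 in hel-1, 165 and 151 in daf-2 and 161 and 145 in hel-1;daf-2, a coefficient of variation of 4.98% over the 8 libraries. The genotypes overlapped in every comparison. The 95% interval of its change was -0.18 to 0.23 in daf-2 against wild type, -0.15 to 0.26 in hel-1 against wild type and -0.25 to 0.16 in the double mutant against daf-2. The annotation lists 11 transcripts of daf-16, and counts per gene do not separate them.

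**Figure D3:**
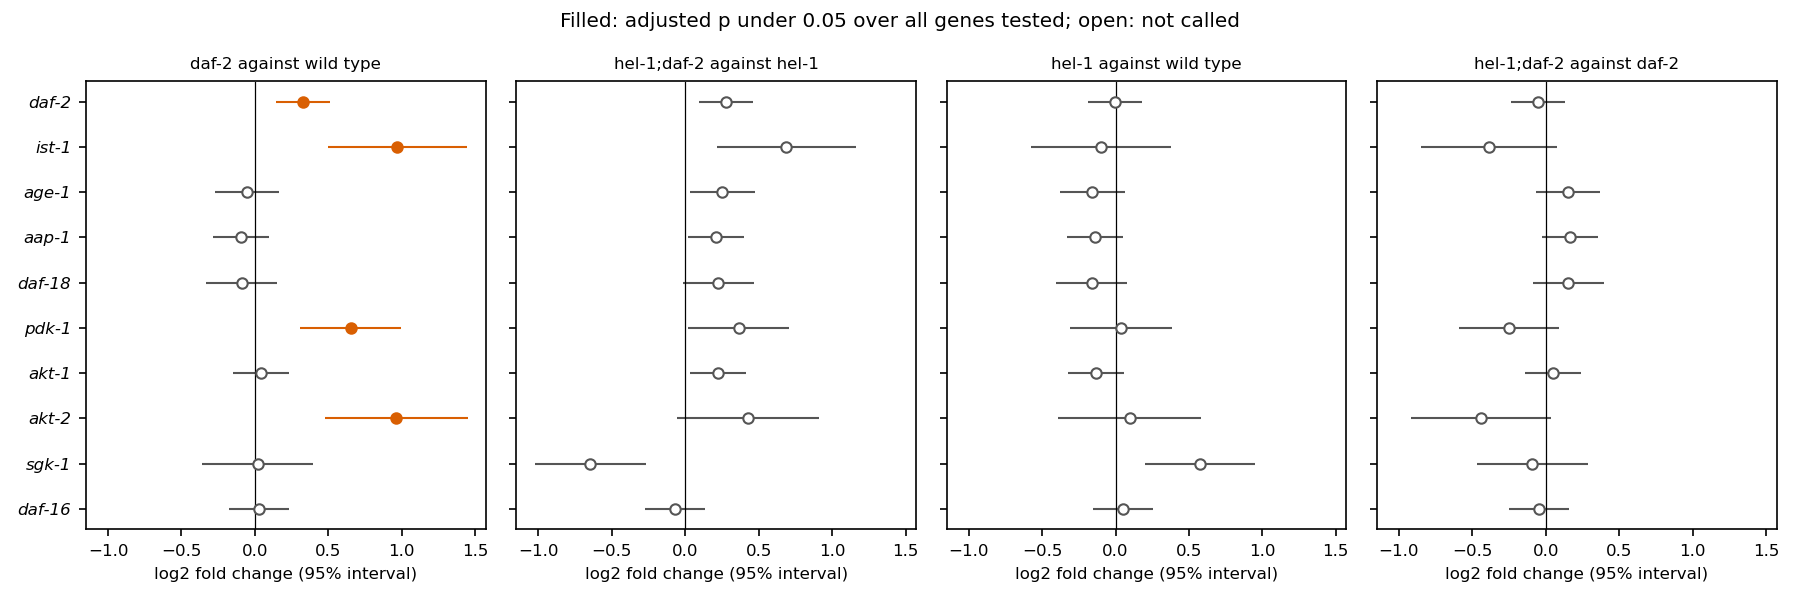
Log2 fold change (horizontal axis) with its 95% interval for each gene in 4 comparisons; filled points passed an adjusted p of 0.05 over all genes tested, open points did not. The filled points are daf-2 (0.33), ist-1 (0.97), pdk-1 (0.65) and akt-2 (0.96), all in daf-2 against wild type.

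Averaged over both hel-1 backgrounds, the e1370 effect was called for the same 4 genes, where 16.5% of all genes were called, 9.68% higher and 6.81% lower. The averages were 0.30 ± 0.06 for daf-2 (adjusted p = 0.0114), 0.83 ± 0.14 for ist-1 (adjusted p = 0.0087), 0.51 ± 0.10 for pdk-1 (adjusted p = 0.0167) and 0.69 ± 0.15 for akt-2 (adjusted p = 0.0188). In each of the 4 the lowest library with e1370 was above the highest without it, a pattern shared by 11.4% of all tested genes. The call of ist-1 held whichever of the 8 libraries was left out, and the calls of daf-2, pdk-1 and akt-2 in 4 of 8 each. daf-2 was not called without wild type replicate 1 (0.27), hel-1 replicate 1 (0.26), hel-1;daf-2 replicate 1 (0.27) or replicate 2 (0.32). pdk-1 was not called without wild type replicate 1 (0.43), hel-1 replicate 2 (0.46), hel-1;daf-2 replicate 1 (0.53) or replicate 2 (0.48), and akt-2 not without wild type replicate 2 (0.62), hel-1 replicate 1 (0.63), hel-1;daf-2 replicate 1 (0.67) or replicate 2 (0.70). Without daf-2 replicate 2 the averages of age-1 (0.18, adjusted p = 0.0221), aap-1 (0.13, adjusted p = 0.0322) and akt-1 (0.17, adjusted p = 0.0344) were called too, when 12.2% of all genes were called higher, and without hel-1 replicate 1 that of sgk-1 (-0.43, adjusted p = 0.0492). These average effects use the same libraries as the separate comparisons and add no independent evidence.

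The average hel-1 effect was called for 0 of the 10 by edgeR and 0 by DESeq2. Of all genes edgeR called 0.0729% and DESeq2 0.401%. At an unadjusted p under 0.05 there were 0 members, beside 603 of all 13722 tested genes. The 95% interval of the average hel-1 effect was -0.16 to 0.10 for daf-2 and -0.16 to 0.15 for age-1. For daf-18 it was -0.18 to 0.17 and for daf-16 -0.14 to 0.15. The interval was wider for the low members, -0.58 to 0.09 for ist-1, -0.51 to 0.17 for akt-2 and -0.03 to 0.51 for sgk-1. No interaction passed for any member, where 0.823% of all genes were called, and DESeq2 called 0 as well; without daf-2 replicate 1 it was called for 5 members, age-1, aap-1, daf-18, akt-1 and akt-2, and for 45.8% of all genes, so 5 of 10 is near that background. The interaction had an unadjusted p under 0.05 in 2 members, sgk-1 (-0.67) and aap-1 (0.31, adjusted p = 0.16). It had so in 3799 of all 13722 tested genes.

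Genes of chromosome X, where ist-1, pdk-1 and akt-2 lie, were called higher more often than autosomal genes in daf-2, a difference given as counts with no test. In daf-2 against wild type 18.3% of 1927 tested X genes were called higher, against 11.1% of 11770 autosomal genes, and their median changes were 0.35 and 0.05. Relative to the mean of the 8 libraries, the median X gene stood at -0.13 and -0.17 in wild type, 0.00 and 0.07 in hel-1, 0.06 and 0.26 in daf-2 and -0.04 and -0.03 in hel-1;daf-2. The deviations of ist-1 in the same order were -0.21 and -0.52, -0.47 and -0.44, 0.44 and 0.75, and 0.31 and 0.13. In the double mutant against hel-1 the median X gene stood at -0.09. The values of ist-1, pdk-1 and akt-2 there were 0.69, 0.36 and 0.42, and none of these was called. The fourth X-linked member, sgk-1, stood at -0.65 there and at 0.02 in daf-2 against wild type. Many X-linked genes are known to be silent in some, not all, stages of germ cells of this worm. The summed oocyte and germline markers, which do not separate these stages, were 5930.0 and 6251 CPM in wild type and 5470.4 and 5147 in hel-1. They were 5397 and 4227 in daf-2 and 5573 and 5423 in hel-1;daf-2. All 7 markers were detected in each library, and their part in the rise of the X-linked members was not tested.

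**Figure D4:**
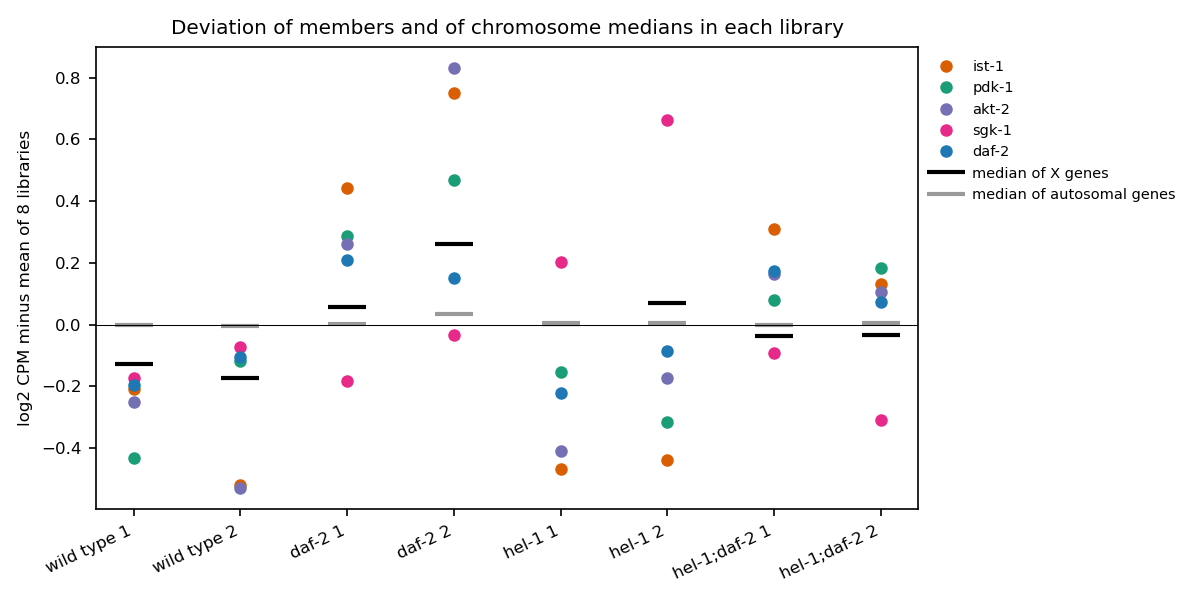
Log2 CPM of 5 genes minus their mean over the 8 libraries (vertical axis), per library, with the median of all tested X genes (black bars) and autosomal genes (grey bars). The X median is highest in daf-2 replicate 2 (0.26), where akt-2 and ist-1 are highest too. It is -0.13 and -0.17 in wild type and -0.04 and -0.03 in hel-1;daf-2. In both hel-1;daf-2 libraries ist-1, pdk-1 and akt-2 are above 0.

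Of the 2 daf-2 libraries the second had the higher levels of several somatic marker lists, as it did of ist-1, pdk-1 and akt-2. The summed body wall muscle markers (5 of 5 detected) were 588 and 422 CPM in wild type, 630.3 and 678 in hel-1, 697 and 2059 in daf-2 and 556 and 569 in hel-1;daf-2. The neuron markers (8 of 8 detected) were 148 and 145, 173 and 181, 163 and 230, and 148 and 151 CPM in the same order. Hypodermis markers (5 of 5) were 667 and 490, 835 and 825, 749 and 1446, and 631 and 625 CPM, and intestine markers (4 of 4 annotated) lay between 682 and 855 CPM in all libraries. In hel-1;daf-2 these muscle, neuron and hypodermis sums were below those of hel-1. The genes ist-1, pdk-1 and akt-2 were higher there without overlap, as were 32.4% of all tested genes. None of the 3 passed in that comparison (edgeR adjusted p = 0.0986, 0.196 and 0.27). Single markers did not all follow the sums. In this comparison the muscle markers had a median of -0.16, with myo-3 at 0.30. The intestine markers had a median of -0.04, with ges-1 at 0.85 (adjusted p = 0.0388). How these markers bear on the 3 genes was not tested. With daf-2 replicate 2 left out, ist-1, pdk-1 and akt-2 stood at 0.82, 0.57 and 0.66 in daf-2 against wild type, and the part of tissue content in the remainder was not tested.

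Among 38 other genes that act on the pathway, 37 were annotated and 33 tested; eak-3, eak-4, sdf-9 and hsd-1 had too few counts. In daf-2 against wild type 5 rose, 3 fell and 25 did not pass, beside the 12.1% and 7.21% of all genes, with a median of -0.17. At an unadjusted p under 0.05 there were 21, beside 5522 of all 13722 tested genes. DESeq2 called 14, of which 3 were higher and 11 lower, so the split between higher and lower differs between the tools. Over all genes DESeq2 called 10.8% higher and 10.5% lower. With edgeR 0 passed in hel-1 against wild type and 0 in the double mutant against daf-2, and DESeq2 called 0 and 0. At an unadjusted p under 0.05 there were 0 and 2, beside 1674 and 2307 of all tested genes. In the double mutant against hel-1, 1 rose with edgeR, beside 2.96% of all genes. That gene was rict-1, which encodes the Rictor subunit of TOR complex 2, the complex known to activate SGK-1. rict-1 had 91.5 and 98.9 CPM in wild type, 96.1 and 98.3 in hel-1, 123 and 115 in daf-2 and 127 and 132 in hel-1;daf-2. It rose by 0.32 ± 0.07 in daf-2 (adjusted p = 0.0257) and 0.42 ± 0.07 in the double mutant against hel-1 (adjusted p = 0.0194). In the same libraries sgk-1 stood at 0.02 ± 0.16 and -0.65 ± 0.16, and passed in neither.

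DAF-16 regulators that changed in daf-2 went both ways: of 14 tested, 3 rose and 1 fell, beside the same 12.1% and 7.21% of all genes. prmt-1, a protein arginine methyltransferase known to methylate DAF-16, had 974 and 937 CPM in wild type, 888 and 783 in hel-1, 638 and 471 in daf-2 and 661 and 627 in hel-1;daf-2. Every library with e1370 was lower than every other, a pattern shared by 9.73% of all tested genes. The change of prmt-1 in daf-2 was -0.78 ± 0.15 (adjusted p = 0.0157). aak-2, a catalytic subunit of AMP-activated kinase, rose by 0.59 ± 0.10 (adjusted p = 0.0127), and ftt-2, a 14-3-3 protein that binds DAF-16, by 0.36 ± 0.07 (adjusted p = 0.0177). bar-1, a beta-catenin known to bind DAF-16, rose by 0.74 ± 0.18 (adjusted p = 0.0325) but was not called with daf-2 replicate 2 left out (0.56, adjusted p = 0.0899) nor in the average e1370 effect (0.20, adjusted p = 0.322). let-60, the Ras gene, fell by 0.32 ± 0.07 on the log2 scale (adjusted p = 0.0246). Of the 6 receptor-proximal and Ras genes 1 rose and 2 fell, with the same background. In the average e1370 effect 5 of the 33 rose and 2 fell, beside 9.68% and 6.81% of all genes. They included sem-5, a GRB2-like adaptor (0.21 ± 0.05, adjusted p = 0.0291), and both tested TOR complex 2 genes, rict-1 (0.37 ± 0.05, adjusted p = 0.00358) and sinh-1.

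Without daf-2 replicate 2, 3 of the 33 other genes rose and 2 fell in daf-2 against wild type, and prmt-1 stood at -0.56, when 6.34% of all genes were called higher and 3.67% lower. Without replicate 1, 4 rose and 19 fell, when 25.3% of all genes were called higher and 23.9% lower. In the double mutant against hel-1, leaving out daf-2 replicate 2 gave 6 higher and 3 lower (8.57% and 7.73% of all genes), and leaving out replicate 1 gave 6 higher and 2 lower (8.09% and 7.01%).

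The 3 members with the widest range of genotype means were ist-1 (1.05 on the log2 scale), akt-2 (0.94) and pdk-1 (0.65). Outside the pathway, the genes whose log2 CPM followed ist-1 most closely over the 8 libraries included C01A2.2 (r = 0.987) and nhr-62, a nuclear hormone receptor gene (r = 0.984), beside a pseudogene under 1 CPM. For akt-2 they were fbxa-69 (r = 0.993), cas-1 (r = 0.991) and H14N18.4 (r = 0.990). For pdk-1 the best match above 1 CPM was T05A7.1 (r = 0.972), after srz-99 and a second pseudogene under 1 CPM. Among the members ist-1 and akt-2 correlated at r = 0.956, and 357 tested genes outside the pathway had r over 0.9 with ist-1 and 540 with akt-2. All these values come from the same 8 libraries, whose tissue marker levels differed, and they are descriptions only.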

How the data were processed

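The authors deposited 1 table of expected counts per library, as estimated by RSEM per the file headers, with replicates not pooled. The submitters' processing notes name RSEM 1.3.1, edgeR, HTSeq, Bowtie, TopHat2, cutadapt and FastQC, and the genome as ce11 or WBcel235; the aligner behind RSEM and the use of strand are not given in these sources. Of the values, 2.03 to 2.79% per library were not whole; all were rounded. Symbols, coordinates and merged exon lengths came from the Ensembl WBcel235 annotation, where 46817 of 46904 identifiers were found.

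Genes passing filterByExpr (13722) were fitted with edgeR 4.0.16 (R 4.3.3, TMM, quasi-likelihood, 4 group means, 4 residual degrees of freedom, common biological coefficient of variation 0.168), checked on simulated counts. Comparisons that share a control group are not independent. Alternatives were DESeq2 1.42.0 and its size factors, no filter, only the groups compared, a replicate block and leaving out each library. Library totals of 31555368 to 37552513 counts give members 94 to 20233 counts per library.

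The members, lists, comparisons and motifs were chosen with earlier results of these data known. All 10 members were named in each comparison, and of the other pathway genes up to 6 called ones per comparison; lin-45 (the second that fell in its list) is not described further, and sinh-1 was named after its value was seen. The 3 genes closest to each of 3 members were taken by correlation. Sequences and motifs are not reported here. Without strand, reads of age-1 (4.89% of its exon bases), aap-1 (7.53%) and daf-16 (2.28%) cannot be told apart from those of genes on the other strand.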

Additional observations from a re-analysis of the deposited data

Results flagged for a closer look

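For age-1, aap-1 and daf-18 the libraries with and without the hel-1 mutation lay in opposite order in the 2 backgrounds: both hel-1 libraries were below both wild-type libraries, and both hel-1;daf-2 libraries above both daf-2 libraries. The interaction (the change with hel-1 among daf-2 strains less that among the others) was 0.31 ± 0.13 on the log2 scale for age-1 (edgeR, adjusted p = 0.182), 0.31 ± 0.12 for aap-1 (adjusted p = 0.16) and 0.31 ± 0.15 for daf-18 (adjusted p = 0.2), so the test of the difference was not passed. The same arrangement of libraries was found in 14% of all tested genes, and the reverse arrangement in 14.9%. Without daf-2 replicate 1 the differences were 0.49, 0.47 and 0.45, with adjusted p of 0.00527, 0.00388 and 0.0174. In that fit the interaction was called for 45.8% of all genes, against 0.823% with all libraries. daf-2 replicate 2, then the only daf-2 library, had the lowest level of age-1 and aap-1 of all 8 libraries, and of daf-18 too.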

How the results depend on the processing

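The number of members called in daf-2 against wild type was 4 in the fit of all libraries, 3 with DESeq2 or its size factors, 4 without the filter, and 0 when only the 2 groups compared were fitted; leaving out 1 library gave 0 to 6. In the double mutant against hel-1 it was 0, and 1 (sgk-1) with DESeq2 or without the filter on low counts. There it was 7 when only the groups compared were fitted (6 higher, and sgk-1 lower), and 0 to 6 with 1 library left out. For the average e1370 effect the count of 4 became 1 to 7, for the double mutant against daf-2 the count of 0 became 0 to 4, and for the interaction 0 to 5. With 1 library left out, the highest counts came without a daf-2 library, in fits where more of all genes were called than with all libraries. Fitting only the groups compared called 3.21% of all genes in daf-2 against wild type and 22.3% in the double mutant against hel-1. The counts of members are thus to be read beside the shares of all genes, which moved as well. For hel-1 against wild type and the average hel-1 effect it stayed 0 under every alternative run. Leaving out a library lowers the residual degrees of freedom from 4, and a group with 1 library is assumed to vary like the others.

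Of 880 values of single members under alternatives, 806 kept their direction or stayed uncalled on the same side of the threshold, 37 lost a call and 37 gained one, and no called value changed sign; 64 uncalled values near 0 did. Without daf-2 replicate 2, age-1 stood at 0.09 and aap-1 at 0.04 in daf-2 against wild type. All genes called in that comparison numbered 297 to 7163 with 1 library left out, against 2648. Across the other settings they numbered 424 to 3613. DESeq2 size factors moved the median of all genes there from 0.10 to 0.03.

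The replicate number as a block left the count at 4 in daf-2 against wild type and in the average e1370 effect and at 0 elsewhere. The labels do not say that replicate numbers mark a shared batch, so the numbers were not read as pairs. Same-numbered libraries of the 4 genotypes correlated in their deviations at -0.46 to 0.17, with 2 of 6 pairs below 0. For ist-1, at 94 to 285 counts, the standard error of 0.20 limits what can be seen to larger changes than in daf-18.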
